A study of Mus musculus with 7 samples.

Results

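The integrated stress response genes examined here were the 10 genes *Atf4*, *Atf5*, *Ddit3*, *Eif2ak3*, *Trib3*, *Ppp1r15a*, *Chac1*, *Sesn2*, *Asns* and *Psat1*, chosen by name as the PERK and ATF4 branch of stress signalling, out of 55487 genes in the count table. They were read in RNA-seq of the cervical spinal cord of 8-week-old mice, with 4 libraries of *Neat1*-KO mice and 3 of *Neat1*-WT mice. The mice of both groups carried hSOD1G93A, a hemizygous transgene of the human *SOD1* gene in a mutant form known from familial ALS, and no library of mice without it was analysed here, so the comparison is of the loss of *Neat1* on that background. *Neat1* encodes a long non-coding RNA on which nuclear bodies called paraspeckles are built. *Neat1*-KO stands for *Neat1*-/- and *Neat1*-WT for *Neat1*+/+, from crosses of *Neat1*+/- parents of which the sire carried the transgene, and the transgene is driven by the human *SOD1* promoter in cells of all types rather than in motor neurons alone. The libraries are called by the numbers in the sample labels, which run from 1 to 4 for *Neat1*-KO and from 2 to 4 for *Neat1*-WT, and values are given in that order. A library was made for each mouse, and the p-values below rest on the spread between these samples.

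The integrated stress response is a brake on translation. A family of kinases, each with its own trigger, phosphorylate the initiation factor eIF2, which lowers protein synthesis in general but favours translation of a few messages with upstream reading frames, *Atf4* first among them. PERK, encoded by *Eif2ak3*, is the kinase in the membrane of the endoplasmic reticulum and responds to unfolded protein there. The ATF4 protein then switches on genes for amino acid uptake and synthesis, further transcription factors such as CHOP, and a phosphatase subunit that reverses the block. Because ATF4 is controlled to a large extent by translation, counts of its RNA do not measure the amount of the protein, and the RNA of its target genes is the usual readout. In mice with mutant SOD1 this response is known from motor neurons, which are a small share of the cells in a whole cord.

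ATF4 acts at C/EBP-ATF response elements (CARE), which join a half-site for C/EBP proteins and one for ATF proteins. The 3 sites below are those that carried the letters TGATGNAA on either strand among the promoter windows of the 10 genes. Each window is the RefSeq sequence of GRCm38.p6 from 250 bases before to 50 bases after a transcription start, and all 10 genes matched, with 12 windows. Sequences are written 5′ to 3′ on the strand of the gene, with the match in capitals and 8 bases on each side.
*Asns*: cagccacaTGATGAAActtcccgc
*Chac1*: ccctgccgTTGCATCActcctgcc
*Trib3*: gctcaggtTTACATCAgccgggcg
The *Asns* site (chr6:7693217-7693240, minus strand) reads in the sense of the gene and begins 23 bases upstream of the start in RefSeq. The gene in GENCODE M21 reaches to 7693254 and holds the site, which is then not upstream of it. The *Chac1* site (chr2:119351041-119351064, plus strand) reads in the antisense and begins 193 bases upstream. The *Trib3* site (chr2:152344031-152344054, minus strand) also reads in the antisense and begins at base 15 of the transcript as RefSeq starts it, while the gene in GENCODE M21 ends at 152344032 and does not hold the capitals. The letters were thus in 3 of the 10 genes (30%), against 4.51% of all 27025 genes with a window. The genes were chosen as the branch in which ATF4 acts, so this share is no test. A match is a description of these windows, and its absence from the other 7 genes says only that the letters are not within the window.

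Before the genes themselves, the labels and libraries were checked. *Neat1* was at 4.04 to 5.52 CPM in the *Neat1*-KO libraries and at 80.5 to 118 CPM in the *Neat1*-WT libraries. CPM is a count scaled to the TMM-adjusted total of its library, and compares a gene between libraries, not genes of different length. Total counts were 19661878 to 26031517, and mitochondrial genes held 3.69% to 5.24% of them. The cervical markers *Hoxa5*, *Hoxb5*, *Hoxc5* and *Hoxc6* were present, at 20.2 CPM or more in every library, while *Hoxc10* and *Hoxd10*, of more caudal cord, were at 0.719 CPM or less. The methods describe mice of both sexes, yet *Xist* had 0 to 4 counts and the Y-linked *Ddx3y* 1047 to 1880 counts in all 7 libraries. *Ddx3y* was at 39.9 to 86.6 CPM in *Neat1*-KO and 81.5 to 94.4 CPM in *Neat1*-WT. All 7 libraries were thus read as male, and the values below do not cover females.

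None of the 10 genes passed the test between the genotypes. All 10 had enough counts to be tested, and 0 were called at an adjusted p under 0.1 with an absolute log2 fold change over 0.58 by edgeR's quasi-likelihood test, where 6 of 18449 genes (0.0325%) were called. Their lowest adjusted p was 0.992. At an unadjusted p under 0.05 the count was also 0 in either direction, against 4.64% of all genes (2.4% lower and 2.24% higher in *Neat1*-KO). DESeq2 and limma-voom called 0 as well, against 0.146% and 0.0325% of all genes, and had 0 under an unadjusted p of 0.05, against 4.31% and 4.7%. The libraries of the genotypes overlapped for each of the 10 genes, whereas they did not overlap for 5.48% of all genes. *Neat1*-KO was lower for 6 genes and higher for 4, where 48.2% of all genes were lower and 51.8% higher. The median log2 fold change of the 10 was -0.04, and that of all genes tested was 0.01. For 8 of the 10, the whole 95% interval of the log2 fold change lay within 0.58 of 0, so that for these a change of the size of the threshold lay outside the interval. *Trib3* and *Chac1* were the exceptions. Log2 fold changes are *Neat1*-KO against *Neat1*-WT, and gene positions below are from GENCODE M21 on GRCm38. In bulk tissue, fewer cells of a type and less RNA per cell cannot be told apart, and a change limited to few cells would be diluted.

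**Figure D1:**
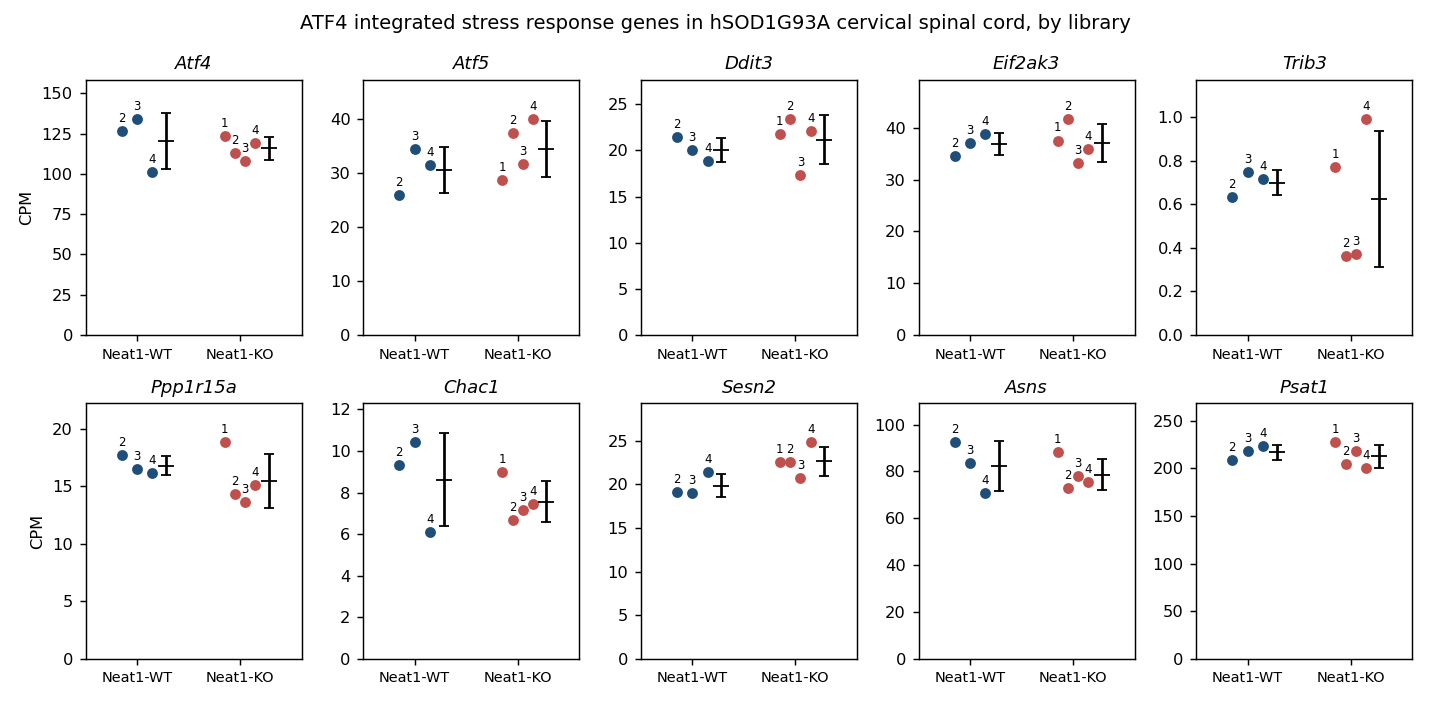
CPM of each of the 10 genes by genotype, on axes that start at 0. Points are libraries with their replicate numbers, and the bar beside them is the mean with 1 SD (4 *Neat1*-KO and 3 *Neat1*-WT libraries); the genotypes overlap in every panel.

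*Eif2ak3*, the PERK kinase at the head of the branch (ENSMUSG00000031668, chr6:70844515-70905245, plus strand), had 37.6, 41.8, 33.1 and 35.9 CPM in the *Neat1*-KO samples. In the *Neat1*-WT samples it had 34.6, 37.1 and 38.8 CPM. The *Neat1*-WT values all lay inside the *Neat1*-KO range. *Neat1*-KO averaged 37.1 CPM with an SD of 3.61 (n = 4), and *Neat1*-WT 36.8 CPM with an SD of 2.12 (n = 3). This gave a log2 fold change of 0.01 (SE 0.094, 95% interval -0.19 to 0.21), near 0 on the scale of its error, and its sign was not fixed by the data. Exons of *Gm43292* overlap 8.05% of its exons on the opposite strand, and the sources do not say whether counting used the strand.

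*Atf4*, the transcription factor that the response turns on (ENSMUSG00000042406, chr15:80255184-80257541, plus strand), had 123, 113, 108 and 119 CPM in the *Neat1*-KO samples. In the *Neat1*-WT samples it had 127, 134 and 101 CPM. Both the highest and the lowest library were *Neat1*-WT. Its log2 fold change was -0.06 (SE 0.096, 95% interval -0.27 to 0.15), with an exact permutation p of 0.657, where the smallest two-sided value that 4 against 3 libraries can give is 0.0286. Without *Neat1*-WT replicate 3, the sign turned and the log2 fold change was 0.02.

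*Ddit3* encodes CHOP, the factor tied to cell death in prolonged stress (ENSMUSG00000025408, chr10:127290774-127296288, plus strand). It stood at 21.7, 23.4, 17.3 and 22.1 CPM in the *Neat1*-KO samples, against 21.4, 20.0 and 18.8 CPM in the *Neat1*-WT samples. The lowest and the highest library were both *Neat1*-KO. This gave a log2 fold change of 0.07 (SE 0.113, 95% interval -0.17 to 0.32). The symbol also stands on a second model, ENSMUSG00000116429, of 105 bases of the same locus, which had 0 counts in all libraries and shares 6.13% of the exon bases of the first, where reads that fit both models may be missing. *Mars* overlaps another 3.97% on the opposite strand.

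*Atf5* encodes a factor related to ATF4 that is also translated through upstream reading frames and acts in the mitochondrial stress response (ENSMUSG00000038539, chr7:44812256-44816658, minus strand). It had 28.7, 37.4, 31.6 and 40.0 CPM in the *Neat1*-KO samples. The *Neat1*-WT samples had 25.9, 34.3 and 31.4 CPM. The lowest library was *Neat1*-WT and the highest 2 were *Neat1*-KO, with the remainder mixed. On the log2 scale *Neat1*-KO minus *Neat1*-WT was 0.17 (SE 0.13, 95% interval -0.10 to 0.45), with an exact permutation p of 0.343. *Nup62* and *Il4i1* overlap 4.11% of its exon bases on the opposite strand.

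Among the feedback and stress effectors, *Ppp1r15a* encodes GADD34, the subunit that directs a phosphatase to eIF2 and so ends the translational block (ENSMUSG00000040435, chr7:45522916-45526268, minus strand). It stood at 18.8, 14.3, 13.6 and 15.1 CPM in the *Neat1*-KO samples, against 17.7, 16.5 and 16.2 CPM in the *Neat1*-WT samples. *Neat1*-KO replicate 1 was the highest of the 7 libraries and the other *Neat1*-KO libraries were the lowest 3. edgeR put the log2 fold change at -0.12 (SE 0.122, 95% interval -0.38 to 0.14), and without *Neat1*-KO replicate 1 it was -0.23, with a lowest adjusted p of 0.729 by edgeR among its alternatives.

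*Trib3*, a pseudokinase induced by ATF4 and CHOP that curbs both (ENSMUSG00000032715, chr2:152337422-152344032, minus strand), was the least abundant of the 10, with 8 to 26 counts a library. It stood at 0.771, 0.363, 0.371 and 0.992 CPM in the *Neat1*-KO samples, against 0.634, 0.747 and 0.714 CPM in the *Neat1*-WT samples. The *Neat1*-WT libraries lay close together and between 2 lower and 2 higher *Neat1*-KO libraries. In the fit, the log2 fold change was -0.15 (SE 0.431, 95% interval -1.09 to 0.78). At this depth a change past the threshold in either direction was not excluded by the interval.

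*Chac1* encodes an enzyme that degrades glutathione and is among the more sensitive targets of this branch (ENSMUSG00000027313, chr2:119351229-119354381, plus strand). It stood at 8.99, 6.69, 7.15 and 7.44 CPM in the *Neat1*-KO samples, against 9.32, 10.4 and 6.12 CPM in the *Neat1*-WT samples. *Neat1*-WT replicate 4 was the lowest library and the other *Neat1*-WT libraries the highest 2. Between the genotypes the log2 fold change was -0.19 (SE 0.183, 95% interval -0.59 to 0.20), with an exact permutation p of 0.486. It was -0.39 when *Neat1*-WT replicate 4 was left out and -0.04 when replicate 3 of that genotype was.

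*Sesn2* encodes a sestrin, which restrains the growth kinase mTORC1 when amino acids are short (ENSMUSG00000028893, chr4:132492032-132510501, minus strand). Its *Neat1*-KO samples had 22.6, 22.6, 20.7 and 24.8 CPM, and its *Neat1*-WT samples 19.2, 19.0 and 21.4 CPM. Only *Neat1*-KO replicate 3 was below *Neat1*-WT replicate 4. Its log2 fold change was 0.19 (SE 0.097, 95% interval -0.02 to 0.40), with an exact permutation p of 0.0857 and an adjusted p of 0.992 by edgeR. It had the smallest unadjusted edgeR p of the 10 genes, 0.0712, and kept a positive sign under every alternative run, from 0.14 to 0.27.

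Of the enzymes of amino acid synthesis, *Asns*, asparagine synthetase (ENSMUSG00000029752, chr6:7675169-7693254, minus strand), had 88.2, 72.7, 78.1 and 75.6 CPM in the *Neat1*-KO samples. In the *Neat1*-WT samples it had 92.4, 83.7 and 71.0 CPM. The highest and lowest libraries were again both *Neat1*-WT. This gave a log2 fold change of -0.07 (SE 0.099, 95% interval -0.28 to 0.15), and without *Neat1*-WT replicate 2 it was 0.02.

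*Psat1*, which makes phosphoserine on the way to serine (ENSMUSG00000024640, chr19:15904678-15947337, minus strand), had 227, 204, 218 and 199.96 CPM in the *Neat1*-KO samples. The *Neat1*-WT samples had 209, 218 and 224 CPM. Its libraries differed least of the 10, with the highest 1.14 times the lowest. On the log2 scale *Neat1*-KO minus *Neat1*-WT was -0.03 (SE 0.069, 95% interval -0.18 to 0.12), the narrowest interval of the 10. The pseudogene *Gm12611*, 91.0% identical over 1056 bases, had 0 or 1 counts.

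**Figure D2:**
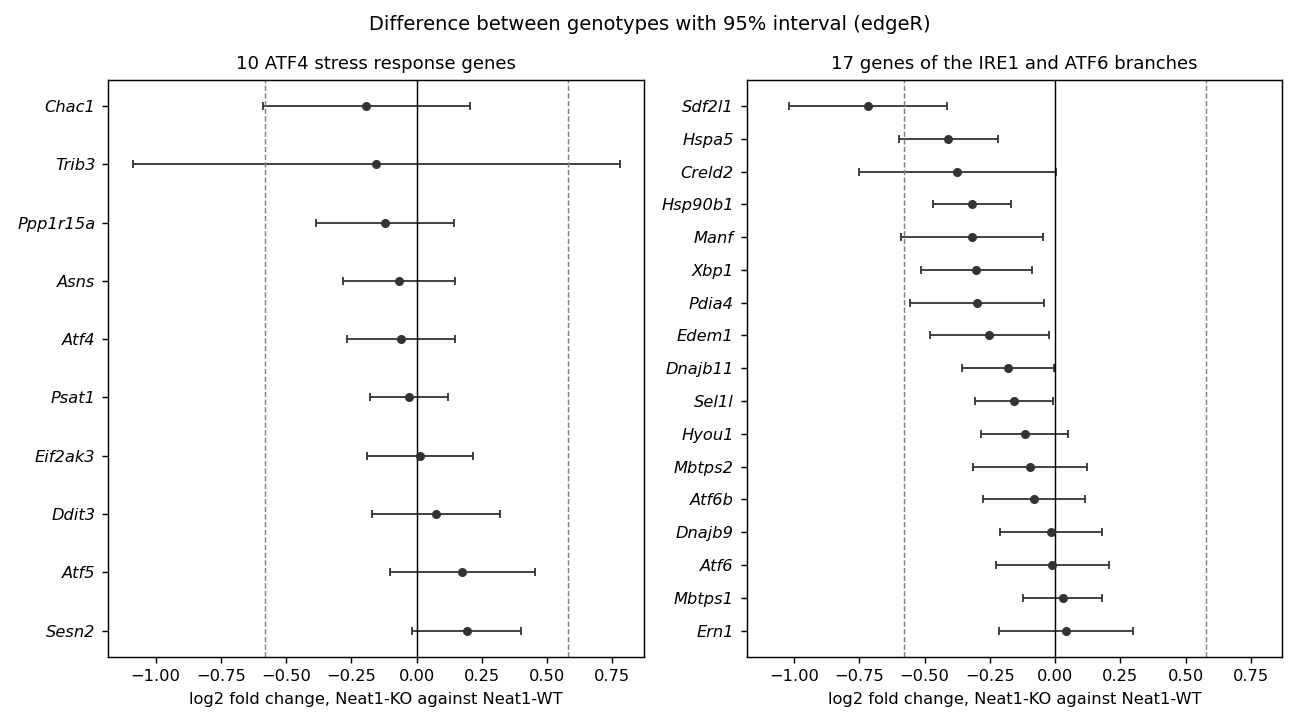
Log2 fold change of *Neat1*-KO against *Neat1*-WT with its 95% interval from edgeR, for the 10 genes on the left and for the 17 genes of the IRE1 and ATF6 branches on the right. Dashed lines mark 0.58 on either side of 0; the interval reaches past a line on the left for *Chac1* and *Trib3*, while on the right 10 genes lie at -0.16 or lower.

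The 10 genes differed in level by far more than they differed between genotypes. Exon length is here that of all annotated exons of a gene merged, which can exceed the length of any single transcript. For *Ddit3*, 105 bases are 6.13% of the merged exons but 10.84% of its longest transcript. The order and overlaps below hold for merged exons, and other lengths could change them. Scaled to exon length, as CPM per kilobase over all 7 libraries, *Psat1* stood at 50.4 ± 2.38 and *Atf4* at 49.97 ± 4.86 (SD, n = 7), and their libraries overlapped. *Asns* followed at 29.3 ± 2.95, apart from its neighbours on both sides. *Atf5* at 16.4 ± 2.45 and *Ddit3* at 12.1 ± 1.23 overlapped each other. Then came *Sesn2* at 6.18 ± 0.594, *Eif2ak3* at 6.13 ± 0.471, *Ppp1r15a* at 5.46 ± 0.628 and *Chac1* at 4.90 ± 0.961, each overlapping the next. *Trib3* was last at 0.309 ± 0.106, below every library of the other 9. The genes for amino acid synthesis and *Atf4* were thus the abundant RNAs, and the pseudokinase was close to the limit of what was counted.

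**Figure D3:**
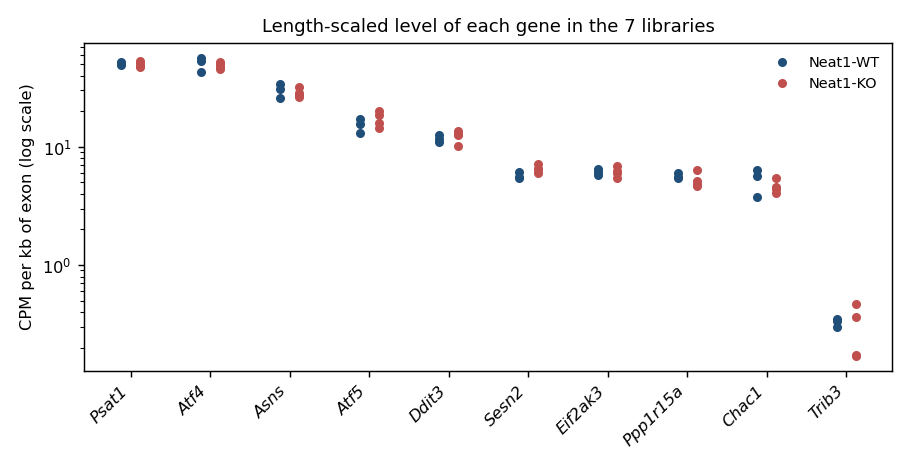
Length-scaled level (CPM per kilobase of exon, log scale) of the 10 genes in each library, ordered by mean. The levels run from about 50.4 for *Psat1* to 0.309 for *Trib3*, and within each gene the *Neat1*-WT and *Neat1*-KO libraries overlap.

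The spread between libraries of one genotype also differed by gene. The SD of log2 CPM within genotypes was 0.07 for *Psat1*, 0.10 for *Sesn2*, 0.15 for *Atf4* and *Asns*, 0.29 for *Chac1* and 0.56 for *Trib3*. Counting alone would give 0.02 for *Psat1*, 0.03 for *Atf4*, 0.11 for *Chac1* and 0.38 for *Trib3*. The spread of *Atf4* and *Chac1* was therefore well above what counting gives, but this was not particular to them. Every gene had more spread than counting gives, with *Asns* at 0.15 against 0.03 and *Atf5* at 0.21 against 0.05.

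Part of this spread was shared. Over the 7 libraries, log2 CPM of *Chac1* followed that of *Atf4* with a Pearson r of 0.949 (exact permutation p = 0.00218, adjusted over 18 relations 0.0393) and a Spearman rho of 0.964 (exact permutation p = 0.00278, adjusted 0.05). The 18 relations are *Atf4* with the other 9 genes and with 9 summed lists of marker genes. Leaving out *Neat1*-WT replicates 3 and 4, the libraries farthest from the median of *Atf4*, r was 0.873, and with both genotypes centred on their means it was 0.953. Both genes were highest in *Neat1*-WT replicate 3 and lowest in *Neat1*-WT replicate 4. Of 18448 genes tested, 12 (0.065%) had an r to *Atf4* at or above that of *Chac1*, and the median over all was 0.00.

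For *Asns* the r to *Atf4* was 0.767 (exact permutation p = 0.05, adjusted 0.225) and rho 0.786 (exact permutation p = 0.048, adjusted 0.199), which did not pass the adjustment. *Ppp1r15a* had an r of 0.528, *Ddit3* of 0.426 and *Trib3* of 0.387, while *Sesn2* had -0.338, *Eif2ak3* -0.156, *Atf5* -0.133 and *Psat1* -0.132. The exact permutation p of these 7 was between 0.223 and 0.772. The 3 genes with the CARE letters printed above were thus at 0.949, 0.767 and 0.387, which is a description of 3 genes and was not tested. The genes most like *Atf4* among 10907 with a mean of at least 10 CPM were *Phf5a* (r = 0.974), *4930539J05Rik* (r = 0.972) and *Blvra* (r = 0.971) over the 7 libraries.

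Markers of other cell types also varied with *Atf4* over the same libraries, though no such relation passed the adjustment. The summed level of 5 astrocyte markers had an r to *Atf4* of -0.816 (exact permutation p = 0.029, adjusted 0.225) and that of 5 meningeal markers of -0.774 (exact permutation p = 0.0472, adjusted 0.225). The astrocyte sum was mostly *Gfap* and *Slc1a2*, at means of 2184 and 2299 CPM, and does not stand for each marker. *Aldh1l1* was highest in *Neat1*-WT replicate 3 (66.4 CPM) and lowest in replicate 4 (57.7 CPM), as *Atf4* was, while *Aqp4* was highest in replicate 4 (884.5 CPM). The meningeal sum was 70.5, 188, 154 and 139 CPM in the *Neat1*-KO samples and 63.8, 102 and 193 CPM in the *Neat1*-WT samples. The *Neat1*-KO library with the least meningeal RNA had the most *Atf4* of its genotype, and the *Neat1*-WT library with the most had the least. At the opposite ends the order did not hold. *Neat1*-KO replicate 2 had the highest sum, but replicate 3 the least *Atf4* (108 against 113 CPM). *Neat1*-WT replicate 2 had the lowest sum, but replicate 3 the most *Atf4* (134 against 127 CPM). The summed microglial markers had an r of -0.694 and those of blood of 0.713. The part of these markers in the relation of *Chac1* to *Atf4* was not tested.

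**Figure D4:**
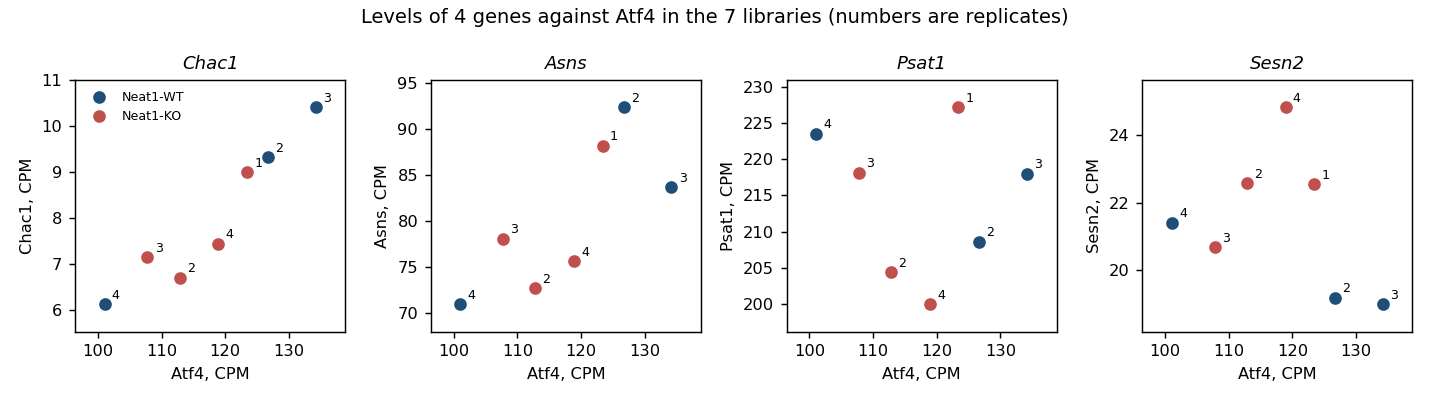
Level of *Chac1*, *Asns*, *Psat1* and *Sesn2* against that of *Atf4*, both in CPM, in the 7 libraries, with replicate numbers beside the points. The axes do not start at 0. *Chac1* follows *Atf4* with r = 0.949 on the log2 scale and *Asns* with 0.767, while *Psat1* and *Sesn2* have r of -0.132 and -0.338.

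Further genes of the response, in 8 lists of 81 symbols chosen by function, were read from the same fit. *Fgf21* and *Gdf15*, secreted factors that ATF4 or CHOP can induce, did not have enough counts to be tested, and of the 79 tested 0 were called by edgeR. At an unadjusted p under 0.05 there were 12, of which 9 were in the list of the IRE1 and ATF6 branches. In the 5 lists of ATF4 and CHOP targets, 19 of 42 genes were lower in *Neat1*-KO and 23 higher, 3 had an unadjusted p under 0.05, and the median log2 fold change was 0.01. Against the 4.64% of all genes under 0.05, a count of 3 in 42 is close to the background.

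In the list of the 3 other eIF2 kinases, eIF2, its exchange factor eIF2B and the phosphatase side, 6 of 13 genes were lower and 7 higher, and the intervals of all 13 lay within 0.58 of 0. *Eif2ak1*, the heme-regulated kinase, was at 91.3 to 95.6 CPM in *Neat1*-KO and 96.4 to 101 CPM in *Neat1*-WT, without overlap, but its log2 fold change was -0.08 with an edgeR adjusted p of 0.992. No other gene of the 13 was without overlap, as 5.48% of all genes were. *Dnajc3*, a co-chaperone also described as an inhibitor of eIF2 kinases, had a log2 fold change of -0.16. Among 7 partners of ATF4 and CHOP with the same type of DNA-binding domain, *Nfe2l1* had a log2 fold change of 0.10 and *Cebpg* of -0.20, and the median was 0.09.

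The serine, glycine and one-carbon enzymes had a median log2 fold change of 0.05 over 5 genes, with *Phgdh*, the first enzyme of serine synthesis, at 0.05 and *Psph*, the last, at -0.13. These sit on either side of *Psat1* in the same short pathway, and all 3 had intervals within 0.58 of 0. The other amino acid enzymes had a median log2 fold change of -0.04 over 5 genes, with *Gpt2* at 0.04 and *Cbs* at -0.04. The list of tRNA synthetases, which includes a tRNA exporter, spanned log2 fold changes of only -0.02 to 0.11 over 13 genes, with *Nars* at -0.01 and *Aars* at 0.11. The level of *Aars* was 220.2 to 250.2 CPM in *Neat1*-KO and 210.6 to 220.1 CPM in *Neat1*-WT, narrowly without overlap and with an edgeR adjusted p of 0.992. The other genes of this list all overlapped, and 5.48% of all genes did not. The growth and death signals had a median log2 fold change of -0.07 over 10 genes, with *Vldlr* at 0.00 and *Vegfa* at 0.07.

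The 9 amino acid transporters held the 3 target genes with an unadjusted p under 0.05, and these did not go one way. *Slc3a2*, the heavy chain shared by several transporters, stood at 142, 132, 113 and 129 CPM in the *Neat1*-KO samples, against 107, 116 and 106 CPM in the *Neat1*-WT samples. *Slc1a5*, a glutamine carrier, was at 3.13, 5.04, 2.23 and 4.08 CPM in *Neat1*-KO and at 1.901, 2.57 and 2.35 CPM in *Neat1*-WT. *Slc38a2*, a sodium-coupled carrier of neutral amino acids, was at 173, 186, 195 and 158 CPM in *Neat1*-KO and at 230, 209 and 202 CPM in *Neat1*-WT. Only *Slc38a2* of the 9 transporters had no overlap, with all *Neat1*-KO libraries lower, where 5.48% of all genes had no overlap. The log2 fold changes were 0.23, 0.68 and -0.26, and the adjusted p values by edgeR 0.992, 0.992 and 0.914, so none passed the test. *Slc6a9*, a glycine transporter and the gene with the highest CPM of the list, had a log2 fold change of -0.01.

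**Figure D5:**
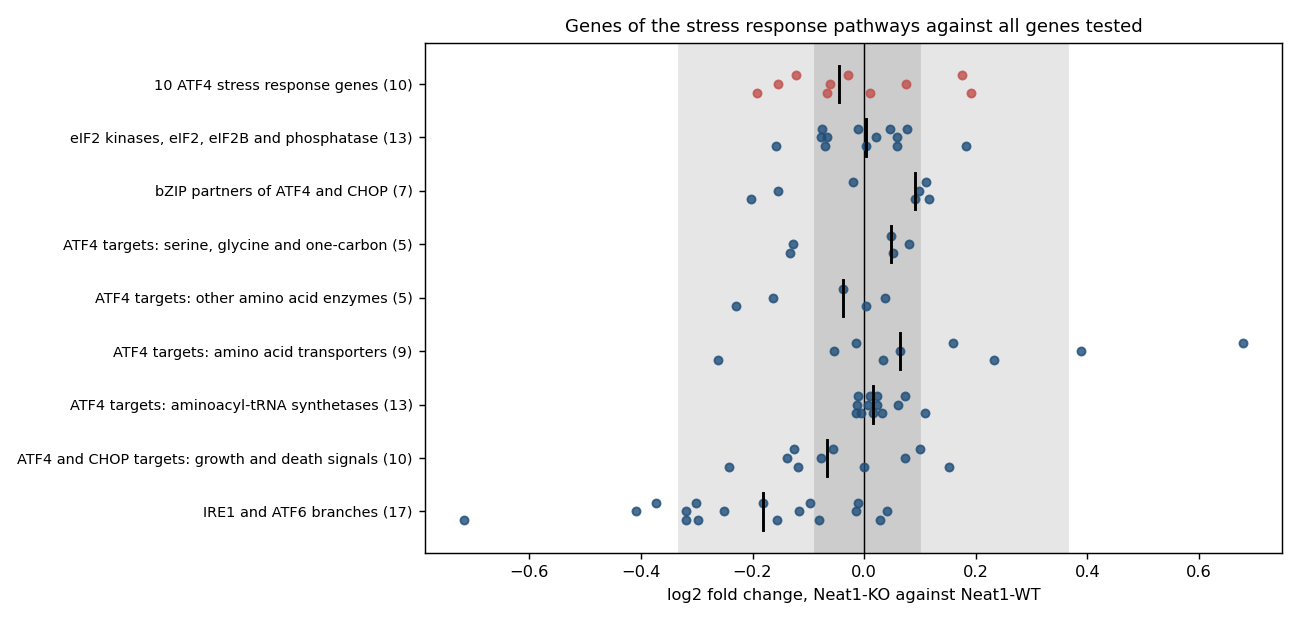
Log2 fold change of *Neat1*-KO against *Neat1*-WT for the 10 genes and for each further list, with the number tested in brackets. Points are genes and the thick bar their median; the dark band holds the middle 50% and the light band the middle 90% of all genes tested. The 10 genes spread about 0, with a median of -0.04, and the IRE1 and ATF6 list has a median of -0.18.

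PERK is 1 of 3 sensors of unfolded protein in the endoplasmic reticulum. The genes listed for the branches of the other sensors, IRE1 and ATF6, gave another picture beside the 10 genes, but not those that encode the sensors. Of 17 genes, 15 were lower in *Neat1*-KO, against 48.2% of all genes, with a median log2 fold change of -0.18. In this direction 9 had an unadjusted p under 0.05, against 2.4% of all genes, and the genotypes did not overlap for 6, against 5.48%. None was called by edgeR with the settings used throughout, and the lowest adjusted p was 0.369. *Hspa5*, the chaperone BiP that holds all 3 sensors inactive, stood at 260, 241, 283 and 227 CPM in the *Neat1*-KO samples, against 346, 360 and 301 CPM in the *Neat1*-WT samples. *Sdf2l1*, a partner of that chaperone, was at 12.4, 11.1, 12.2 and 8.85 CPM and at 19.1, 20.3 and 15.3 CPM in the same order. *Hsp90b1*, the chaperone GRP94, was at 294, 281, 322 and 278 CPM and at 371, 370 and 358 CPM. For these 3 the highest *Neat1*-KO sample lay under the lowest *Neat1*-WT one, and the log2 fold changes were -0.41, -0.72 and -0.32. By DESeq2 their adjusted p was 0.0124, 0.00354 and 0.0127, and of the 3 only *Sdf2l1* then also passed the fold threshold. Over all alternatives the adjusted p ran up to 1, from 0.000196 for *Hspa5*, 3.24e-05 for *Sdf2l1* and 0.0127 for *Hsp90b1*. The others under 0.05 were *Xbp1*, the factor spliced by IRE1, *Manf*, *Pdia4*, *Edem1*, *Dnajb11* and *Sel1l*, between -0.32 and -0.16. Not under 0.05 were the sensor genes *Ern1* (0.04), which encodes IRE1, *Atf6* (-0.01) and *Atf6b* (-0.08). The same held for *Mbtps1* (0.03), *Mbtps2* (-0.10), *Dnajb9* (-0.02), *Hyou1* (-0.12) and *Creld2* (-0.37).

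In these same libraries the 10 genes of the PERK and ATF4 branch had 0 genes under 0.05 and a median of -0.04. The difference between the lists was not tested, because the lists were chosen with earlier results of these data known. Their promoter windows were read for letters as a description. Both lists were chosen by function, so their shares beside those of all genes are no test. The element through which ATF6 acts, ERSE, searched on both strands as CCAAT and CCACG with any 9 bases between them, was in 0 of the 10 genes and in 3 of the 14 IRE1 and ATF6 genes with a window (21.4%), against 0.137% of all genes. These sites are printed because they stand in *Hspa5* and *Hsp90b1*, described above, and in *Creld2*, which has the third.
*Hspa5*: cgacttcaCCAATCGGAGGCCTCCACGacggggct
*Hsp90b1*, first site: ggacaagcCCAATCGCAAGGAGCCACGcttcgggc
*Hsp90b1*, second site: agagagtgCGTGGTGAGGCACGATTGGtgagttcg
*Creld2*: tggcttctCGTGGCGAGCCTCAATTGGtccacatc
Capitals mark the match in the sense of the gene for *Hspa5* (chr2:34772017-34772051, plus strand) and for the first *Hsp90b1* site (chr10:86705630-86705664, minus strand). They mark it in the antisense for the second *Hsp90b1* site (chr10:86705525-86705559, minus strand) and for *Creld2* (chr15:88819512-88819546, plus strand). No match overlapped another, no CARE letters were in the 14 windows, and the letters TGACGTGG of the UPRE, the element bound by XBP1, were in neither list, against 0.714% of all genes. *Creld2* had a log2 fold change of -0.37 with an edgeR adjusted p of 0.992, and its genotypes overlapped.

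Markers of other cell types were read beside both lists. All 6 motor neuron markers had a lower level in *Neat1*-KO, 3 of them (*Slc18a3*, *Slc5a7* and *Prph*) with an unadjusted p under 0.05, against 2.4% of all genes in this direction, and 0 called by edgeR. Their summed level was 278 to 338 CPM in *Neat1*-KO and 360 to 428 CPM in *Neat1*-WT, without overlap, and none of the 6 was at 0. Read alone, each of the 6 overlapped between the genotypes. The genes with the highest means were *Slc5a7* (131 CPM), *Prph* (93.2 CPM) and *Slc18a3* (81.3 CPM). Their log2 fold changes were -0.40, -0.20 and -0.30, beside -0.09 for *Chat*, -0.13 for *Isl1* and -0.36 for *Mnx1*. All 5 oligodendrocyte markers were lower too, with a median log2 fold change of -0.16, and of these *Mobp*, a myelin gene, had an unadjusted p under 0.05, at 3386 to 3589 CPM against 3919 to 4035 CPM, without overlap. Their summed level was 31860 to 34820 CPM in *Neat1*-KO and 33410 to 40950 CPM in *Neat1*-WT. The 3 genes of the sensory ganglion list with enough counts were lower, with a median log2 fold change of -0.38, and *Calca* had an unadjusted p under 0.05. *Calca* was at 69.4, 41.3 and 46.0 CPM in *Neat1*-WT and at 32.6 to 46.4 CPM in *Neat1*-KO. Its genotypes overlapped, with an exact permutation p of 0.229, and *Avil* had only 5 to 22 counts. The defining markers *Scn10a* and *Mrgprd* were at 0.255 CPM or less, so these 3 genes were not read as ganglion RNA, and the cells they come from were not tested. The summed level of the list was 35.9 to 48.8 CPM in *Neat1*-KO and 45.3 to 73.8 CPM in *Neat1*-WT. The markers of neurons, astrocytes, microglia, blood and meninges had 0 genes under 0.05. All 5 microglial and all 5 meningeal markers were higher in *Neat1*-KO, with median log2 fold changes of 0.04 and 0.27. The neuron list had 2 lower and 2 higher, the astrocyte list 3 lower and 2 higher, and the blood list 4 lower and 1 higher. The summed level of the 10 genes was 528 to 578 CPM in *Neat1*-KO and 529 to 574 CPM in *Neat1*-WT. The part of these cell types in the values of either list was not tested.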

How the data were processed

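Per the labels, poly(A) RNA of 7 cervical spinal cord samples was made into directional libraries. The authors deposited raw counts per Ensembl gene, not normalized. The submitters' processing notes name FastQC 0.11.7, Trimmomatic 0.38, HISAT2 2.1.0, SAMtools 1.9, featureCounts 1.6.3 and mm10, and the methods state that uniquely mapped reads were counted, so reads shared with near-identical copies are missing. The annotation release and strand setting are not given in the sources used here. GENCODE M21 (GRCm38) names 55227 of 55487 genes, and the other 260 hold 0.00446% of counts. Promoter windows came from RefSeq.

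Counts were filtered by filterByExpr, TMM-scaled and tested with edgeR 4.0.16 (R 4.3.3) with Benjamini-Hochberg adjustment over 18449 genes, and 95% intervals come from that fit. The biological coefficient of variation was 0.128. Thresholds follow the study. Log2 CPM used a pseudocount of 0.5 count. Single genes and correlations had two-sided exact permutation tests. Intervals cover the spread between libraries. No 2 libraries of a genotype agreed within sampling noise (chi-square per gene 7.63 to 16.7 over 9 pairs). Copies were searched with BLAST 2.17.0. Alternatives were DESeq2 1.42.0, limma-voom 3.58.1, 2 other scalings, 2 other filters, *Xist* as a covariate, a block for replicate numbers and leaving out each library.

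The 10 genes and all lists were chosen with earlier results of these data known. All 10 were named. From each further pathway list, the genes called, those with an unadjusted p under 0.05 and the 2 with the highest mean CPM were named, and for *Atf4* the 3 genes most like it. *Ddx3y*, the cell type markers, *Fgf21*, *Gdf15*, *Slc7a11* and *Atf3* were named after their values were seen. So were *Creld2*, *Ern1*, *Atf6*, *Atf6b*, *Mbtps1*, *Mbtps2*, *Dnajb9* and *Hyou1*. No protein sequences were used here.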

Additional observations from a re-analysis of the deposited data

How the results depend on the processing

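None of the 10 genes was called under any alternative, and their median log2 fold change ran from -0.08 to -0.0034 with 1 library left out and from -0.07 to -0.04 otherwise. Over all genes the number called was less stable. It was 124 without a filter on low counts, 27 by DESeq2 and 39 with the replicate number as a block, against 6, and it ran from 3 without *Neat1*-WT replicate 3 to 31 without *Neat1*-KO replicate 1, with 11 without *Neat1*-WT replicate 4. Some signs near 0 turned. *Eif2ak3* was -1.51e-05 with the replicate block, -0.0573 with the *Xist* covariate and -0.0519 to 0.0609 with 1 library left out. *Trib3* was 0.19 with *Xist* as a covariate and -0.496 to 0.0415 with 1 library left out. *Atf4* ran from -0.175 to 0.0220 and *Asns* from -0.165 to 0.0233 with 1 library left out. An unadjusted p under 0.05 appeared for *Sesn2* with the *Xist* covariate and without *Neat1*-KO replicate 3 or *Neat1*-WT replicate 4, for *Ppp1r15a* without *Neat1*-KO replicate 1, and for *Chac1* without *Neat1*-WT replicate 4. *Xist* had at most 4 counts, so that covariate carries mostly counting error. The cause of these moves was not tested. Number 1 occurs only in *Neat1*-KO, so with the block that library adds nothing to the estimated genotype difference. The block is thus close to leaving out *Neat1*-KO replicate 1, with *Ppp1r15a* at -0.227 and -0.229, and these are not separate checks. *Sdf2l1* was called without a filter (adjusted p = 3.24e-05), by DESeq2 (0.00354), with the block (0.0236) and without *Neat1*-KO replicate 1 (0.0758), and not in edgeR on all 7 libraries under the settings of the report. *Hspa5* had an adjusted p of 0.0124 by DESeq2, 0.000196 without a filter and 0.0885 with the block, and *Hsp90b1* of 0.0127 by DESeq2 and 0.0172 without a filter, both under the fold threshold. The deviations of same-numbered libraries correlated at -0.20, -0.12 and -0.01 for numbers 2, 3 and 4, so the numbers were not taken to pair the samples, and the replicate block changed no call among the 10 genes. DESeq2 gave no adjusted p for *Trib3*. With 8 to 26 counts a library, depth limits what can be said of *Trib3*.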

Other observations

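A pair of genes on the lists of ATF4 partners and targets had nearly equal means in the genotypes but a *Neat1*-WT library far from the others. *Slc7a11*, the cystine carrier that supplies glutathione synthesis, was at 47.9 CPM in *Neat1*-WT replicate 4 and at 19.8 and 21.2 CPM in *Neat1*-WT replicates 2 and 3, while the *Neat1*-KO libraries lay between, at 25.9 to 37.0 CPM. *Neat1*-WT replicate 4 was also the library with the least *Atf4*, *Chac1* and *Asns* and, of the 7, with the highest meningeal sum, 193 CPM. *Atf3*, a stress-induced factor that pairs with CHOP and ATF4, was at 4.39 CPM in *Neat1*-WT replicate 2 and at 0.840 and 0.408 CPM in *Neat1*-WT replicates 3 and 4, with 1.39 to 2.36 CPM in *Neat1*-KO. The log2 fold changes between the genotypes were 0.06 for *Slc7a11* and -0.02 for *Atf3*, with 95% intervals of -0.48 to 0.61 and -1.25 to 1.20. *Gdf15*, which had too few counts to be tested, was at 0.154 to 0.242 CPM in *Neat1*-KO and 0.306 to 0.420 CPM in *Neat1*-WT, from 3 to 9 counts a library.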
